A study of Rattus norvegicus with 17 samples.

Results

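Slc26a1 and Xpr1 were followed in kidney RNA of rats with a subtotal nephrectomy (SNx) and of control rats labelled NoOp. The genes were taken by name, as ENSRNOG00000000041 (Slc26a1) and ENSRNOG00000000042 (Xpr1), with earlier results of these data known. Their symbols came from transcript lists that the study had called changed, so their calls are not independent evidence of change. They are 2 of the 23487 genes in the count tables and 2 of the 15438 genes tested. Both transcripts fell after SNx, though both calls were lost when libraries were scaled by size alone. Slc26a1 fell to 0.528 of its NoOp level and ranged widely among the SNx libraries, whereas Xpr1 fell to 0.784 and kept a narrow range. Inside the same libraries Slc26a1 fell further than Xpr1, with 11 of 12 SNx libraries below all controls. That call was lost on leaving out any single control. The SNx libraries lowest in one transcript were also lowest in the other.

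SLC26A1 is an anion exchanger of the basolateral membrane of the proximal tubule, where it carries sulfate out of the cell in exchange for bicarbonate or oxalate and so completes the reabsorption of sulfate that apical sodium-sulfate cotransport begins. XPR1 is a plasma membrane phosphate exporter whose cytoplasmic SPX domain binds inositol pyrophosphates, and in the proximal tubule it lies downstream of the sodium-phosphate cotransporters that bring phosphate in from the urine. The kidney sets the level of both anions in blood, and phosphate is retained when few nephrons are left.

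The data were 17 bulk RNA-seq libraries of male Wistar Han rat kidney, 12 from SNx rats and 5 from NoOp rats. In SNx, part of the right kidney is resected and the whole left kidney is removed in a later operation, so that the tissue studied is the remnant, and animals were to be killed once proteinuria or serum creatinine had passed a set threshold. The study states that in one of its SNx experiments only some rats reached that threshold. The labels do not say which of the 12 SNx libraries here came from such rats. By the study's counts, fewer than 12 rats of both SNx experiments can have reached it. The 12 libraries therefore cannot all come from separate rats that did. The labels give no age, time after surgery or disease measure for single rats, and the study's methods mention both unoperated and sham-operated controls, so whether NoOp rats had a sham operation is not settled beyond the label. No genotype or drug is given for either group. Nothing in the labels says that the libraries of a group came from separate rats, so p-values measure the spread between these libraries.

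SNx libraries held 19210434 to 30784070 counts (median 22709319) and NoOp libraries 30454170 to 43876369 (median 32745316), so that depth ran with group. Levels are given as log2 CPM (counts scaled by the summed counts of each library), with TMM scaling factors of 0.980 to 1.11 in SNx and 0.879 to 0.941 in NoOp libraries. With these factors the median log2 fold change of all genes was 0.02, against 0.23 when libraries were scaled by size alone. CPM is not corrected for transcript length, so levels are not compared between genes. The libraries carry numbers of 2 ranges in their labels, with 6 SNx libraries in each and all 5 NoOp libraries in the lower one, and what the ranges stand for is not stated.

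The tissue carried proximal tubule transcripts in every library, at levels that differed between the groups. All 12 proximal tubule markers with an identifier fell in SNx, at a median of -1.64 on the log2 fold scale and with a summed level of 1738 to 14659 CPM in SNx against 21328 to 24926 CPM in NoOp libraries. All 3 markers of injured tubule, all 5 of leukocytes and both of fibroblasts rose, their summed levels reaching 3032 to 16618, 164 to 346 and 805 to 8744 CPM in SNx against 316 to 576, 51.6 to 84.0 and 216 to 267 CPM in NoOp libraries. Identifiers came only from transcript lists that the study had called changed, and among the 2003 tested genes with a symbol 40.5% were called lower and 53.4% higher, against 27.7% and 30.3% of all 15438 genes tested. None of these markers was at 0 in any library. The only distal marker with an identifier, the calcium channel Trpv5, rose as well (log2 fold change 1.52), and podocyte and endothelial markers had no identifier. In bulk tissue, fewer cells of a type and less RNA per cell cannot be told apart, and the part of this shift in the results for Slc26a1 and Xpr1 was not tested.

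Slc26a1 lies on chromosome 14 and Xpr1 on chromosome 13, and their promoters differ in base composition. The windows from 250 bases before to 50 bases after the annotated start are shown because they are the regulatory sequence at hand for 2 transcripts that varied together, with every CpG in capitals. They are RefSeq sequences of build GRCr8, at chr14:1184721-1185020 on the plus strand for Slc26a1 and at chr13:70136115-70136414 on the minus strand for Xpr1, each written 5′ to 3′ along its gene.
Slc26a1 promoter: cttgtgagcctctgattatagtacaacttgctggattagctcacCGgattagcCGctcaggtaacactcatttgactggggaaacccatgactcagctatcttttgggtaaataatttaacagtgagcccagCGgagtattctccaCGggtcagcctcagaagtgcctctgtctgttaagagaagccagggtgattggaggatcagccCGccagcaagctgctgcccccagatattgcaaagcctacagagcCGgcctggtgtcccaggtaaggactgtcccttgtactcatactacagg
Xpr1 promoter: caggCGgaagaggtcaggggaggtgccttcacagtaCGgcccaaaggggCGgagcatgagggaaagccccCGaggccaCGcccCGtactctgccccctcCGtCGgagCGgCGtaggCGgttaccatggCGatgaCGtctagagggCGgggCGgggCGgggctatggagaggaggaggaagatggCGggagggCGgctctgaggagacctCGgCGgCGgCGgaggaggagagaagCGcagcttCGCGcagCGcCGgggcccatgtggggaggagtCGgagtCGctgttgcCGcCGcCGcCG

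The Slc26a1 window held 6 CpGs at 51.3% GC, and 43.7% of the 33465 rat promoter windows held fewer CpGs. The Xpr1 window held 33 CpGs at 71.3% GC, and 92.5% of windows held fewer. A median window held 7 CpGs at 51.7% GC. Short motifs were searched on both strands, and positions are counted from the 5′ end of the window. The letters CCAAT occurred 1 time in the Slc26a1 window, on the strand opposite to the one printed. The match is read there as ATTGG from position 194, and 37.5% of all windows held CCAAT on either strand. The Xpr1 window held 5 matches to GGGCGG, the letters of a GC box, which 33.1% of windows contained. It also held 1 match to TGACGT, the core of a cyclic AMP response element found in 7.94% of windows, and 1 match to AGGTCA, a nuclear receptor motif found in 16.2%. Neither window matched TATAAA (14.2% of windows), GTTAAT (7.44%) or CACGTG (6.42%). Of the 5 matches to GGGCGG, 3 lie in a row and overlap by 1 base, and no match overlapped with that of a different motif.

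**Figure D1:**
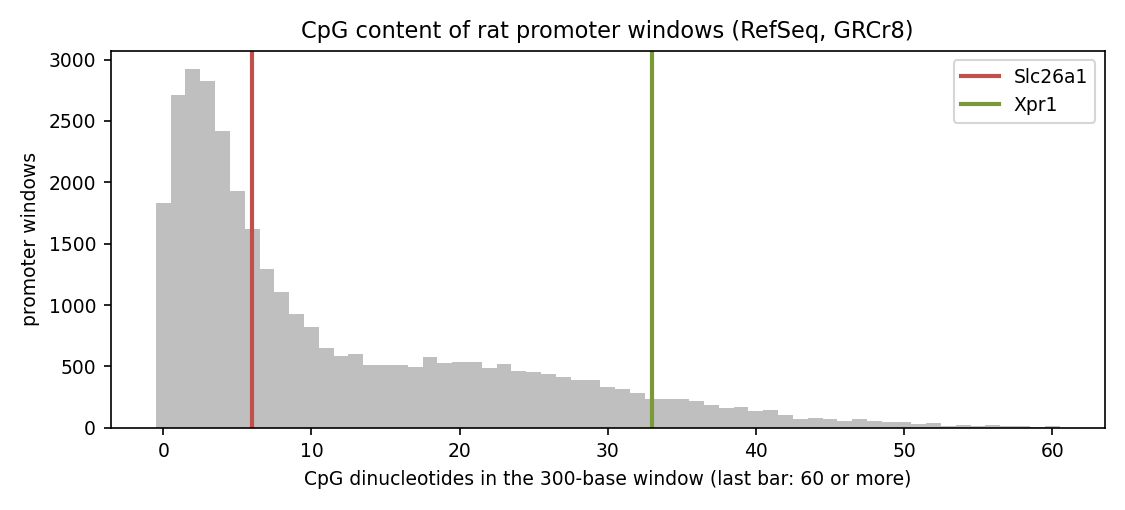
Number of CpG dinucleotides in the promoter window of each rat gene (x axis, grey bars, the last one pooling 60 or more) against the number of windows (y axis), with Slc26a1 and Xpr1 as vertical lines. Slc26a1, with 6 CpGs, lies close to the median of 7, and Xpr1, with 33, lies in the upper tail.

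Slc26a1 stood at 7.81, 8.14, 7.78, 8.17 and 7.53 log2 CPM in NoOp libraries 1 to 5, a mean of 7.89 ± 0.27 (SD, n = 5). In SNx libraries 1 to 12 it stood at 4.96, 7.29, 7.37, 7.74, 6.39, 6.72, 6.96, 6.50, 7.44, 5.25, 7.57 and 7.19 log2 CPM, a mean of 6.78 ± 0.89 (SD, n = 12). The NoOp libraries kept closer together than the SNx libraries. Of the 12 SNx libraries 10 lay below all controls, and SNx 4 and SNx 11 alone overlapped with the control range. These levels rested on 649 to 5962 counts per SNx library and 5276 to 11132 counts per NoOp library. The log2 fold change was -0.92 with a standard error of 0.33 (edgeR quasi-likelihood test, adjusted p = 0.024). The difference of the group means of log2 CPM was -1.10, with an exact two-sided permutation p of 0.0160.

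Xpr1 stood at 5.77, 5.83, 5.60, 5.78 and 5.32 log2 CPM in NoOp libraries 1 to 5, a mean of 5.66 ± 0.21 (SD, n = 5). In SNx libraries 1 to 12 it stood at 4.73, 5.50, 5.53, 5.51, 5.26, 5.20, 5.21, 5.33, 5.44, 5.05, 5.52 and 5.34 log2 CPM, a mean of 5.30 ± 0.24 (SD, n = 12). The groups overlapped through a single control, NoOp 5, which lay level with the middle of the SNx range, and 5 of the 12 SNx libraries lay below all controls. Counts were 553 to 1440 per SNx library and 1146 to 2116 per NoOp library. The log2 fold change was -0.35 with a standard error of 0.11 (edgeR quasi-likelihood test, adjusted p = 0.014), and the difference of mean log2 CPM was -0.36 with an exact permutation p of 0.0095.

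**Figure D2:**
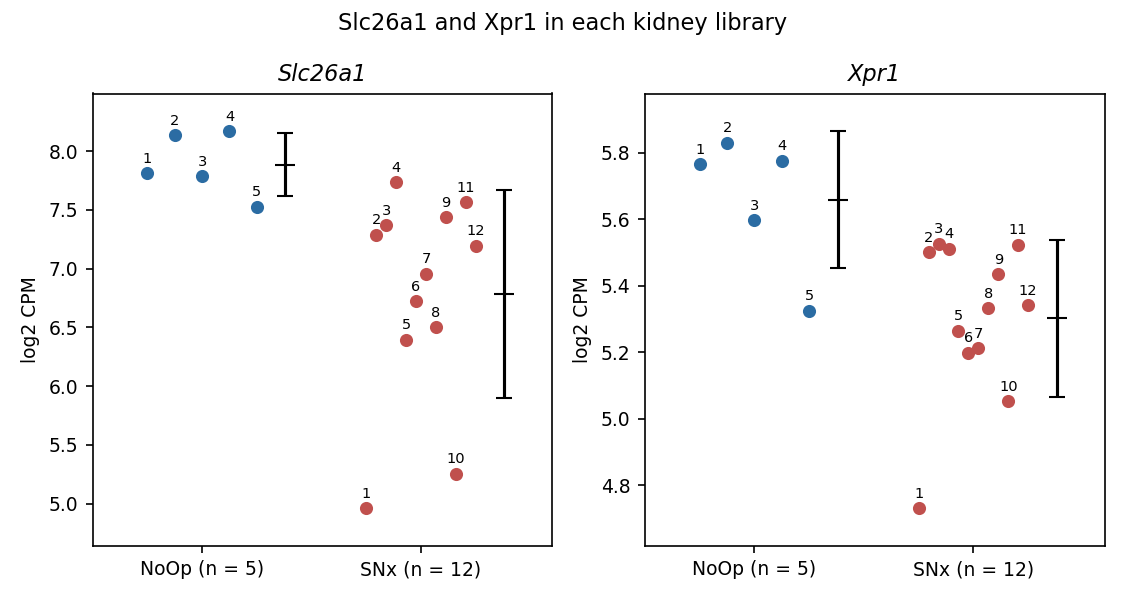
Level of Slc26a1 (left) and Xpr1 (right) in each library, on the y axis as log2 CPM with a separate scale for each gene, by group on the x axis, with library numbers beside the points and bars for the mean ± SD. SNx 1 and SNx 10 are the lowest SNx libraries for both genes, and NoOp 5 is the lowest control for both.

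Both falls were shared by many genes. In the same test 58.0% of the 15438 genes were called, 27.7% lower and 30.3% higher in SNx. Of the 2003 tested genes with a symbol, which include Slc26a1 and Xpr1, 40.5% were called lower and 53.4% higher. Being called lower in SNx therefore does not set Slc26a1 or Xpr1 apart. With no overlap at all, 9.60% of genes lay lower in SNx, which neither did. Among the 4277 genes that fell, 25.3% had a larger fall than Slc26a1 and 76.9% a larger one than Xpr1. The standard deviation of Slc26a1 among SNx libraries exceeded that of 92.7% of genes, and among NoOp libraries that of 72.4%. For Xpr1 the corresponding shares were 38.4% and 61.4%.

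Both calls depended on how libraries were scaled, and that of Slc26a1 also on single controls. Scaled by library size alone, the log2 fold change was -0.73 for Slc26a1 (edgeR adjusted p = 0.0544) and -0.15 for Xpr1 (edgeR adjusted p = 0.197), when 15.6% of all genes were called lower. The Slc26a1 call was also lost without NoOp 2 (log2 fold change -0.86, edgeR adjusted p = 0.056) and without NoOp 4 (-0.85, edgeR adjusted p = 0.0592), while the Xpr1 call held without any single library. Against the SNx libraries of the lower number range alone, which share their range with the controls, the log2 fold changes were -0.92 and -0.35 with edgeR adjusted p of 0.0522 and 0.0574. Those of the upper range alone gave -0.91 (edgeR adjusted p = 0.0341) and -0.34 (edgeR adjusted p = 0.0192).

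Expressed as a share of the NoOp mean CPM, the SNx libraries kept very different amounts of Slc26a1. SNx 1 and SNx 10 kept 13.0% and 15.9%, SNx 5, 8 and 6 kept 35.0%, 37.7% and 44%, and SNx 7 and SNx 12 kept 51.8% and 61.1%. The remaining libraries, SNx 2, 3, 9, 11 and 4, kept 65.3%, 68.9%, 72.3%, 79.0% and 88.9%. The shares thus covered most of the span between loss of the transcript and the control level. Xpr1 kept 52.1% in SNx 1 and 65.1% in SNx 10, and between 72.1% and 90.5% in the other 10 SNx libraries. Without SNx 1 and SNx 10, left out after their values were seen, the log2 fold change was -0.73 ± 0.20 (SE) for Slc26a1 and -0.28 ± 0.08 for Xpr1 (edgeR adjusted p = 0.00584 and 0.0113), so neither call rested on these libraries.

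**Figure D3:**
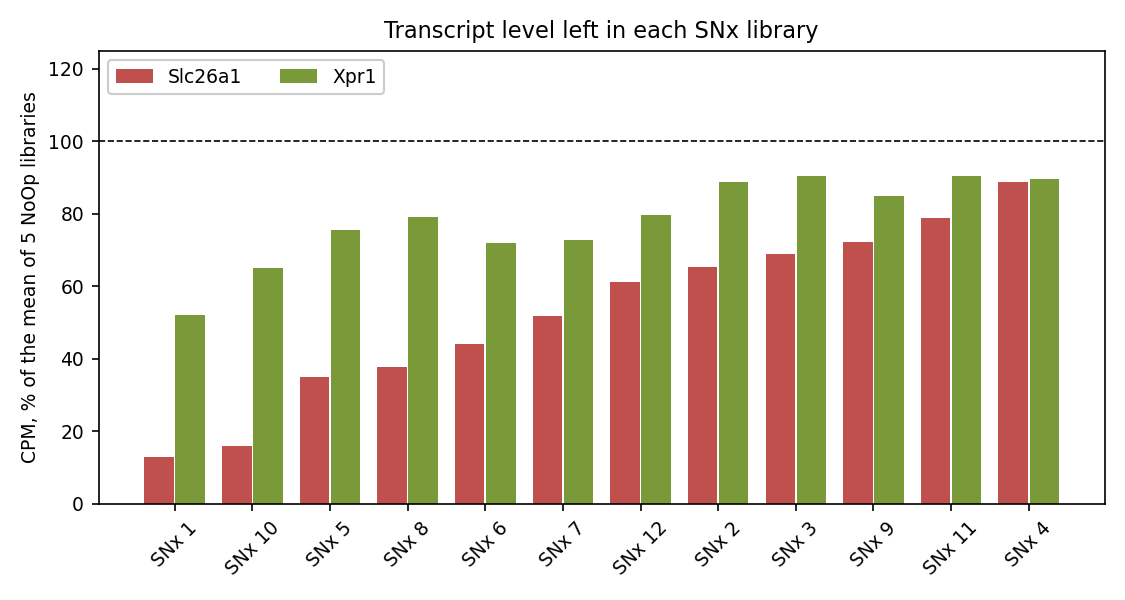
CPM of Slc26a1 (red) and Xpr1 (green) in each SNx library as a percentage of the mean of the 5 NoOp libraries, with libraries on the x axis ordered by Slc26a1 and a dashed line at 100%. Slc26a1 runs from 13.0% to 88.9% and Xpr1 from 52.1% to 90.5%, and the bars meet only in SNx 4.

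Whether Slc26a1 fell further than Xpr1 was tested on the difference of the 2 log2 levels inside each library, which no scaling factor changes. Slc26a1 minus Xpr1 was 2.05, 2.31, 2.19, 2.39 and 2.20 in NoOp libraries 1 to 5. It ran from 0.20 in SNx 10 and 0.23 in SNx 1 up to 2.22 in SNx 4, with a mean of 1.48 ± 0.67 (SD, n = 12) against 2.23 ± 0.13 (SD, n = 5) in NoOp. Thus 11 of 12 SNx libraries lay below all controls, and the difference between groups was -0.75 log2 units (exact permutation p = 0.0267, adjusted p = 0.036 over 5 such comparisons). Leaving out SNx 5, SNx 6 or any single control took the adjusted permutation p to between 0.0507 and 0.0778 with the difference between -0.79 and -0.71, and the other 10 single libraries did not end the call.

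The transporters were then set against Lrp2, the endocytic receptor megalin of the proximal tubule brush border, in the same way. Lrp2 itself fell by 1.19 on the log2 scale (SE 0.33, edgeR adjusted p = 0.00528). Slc26a1 minus Lrp2 was -4.79 ± 0.33 in SNx and -5.08 ± 0.21 in NoOp libraries, a difference of 0.28 that did not pass the test (exact permutation p = 0.10, adjusted p = 0.10). Leaving out SNx 10 alone gave 0.36 with an adjusted permutation p of 0.0229, so 1 library decided on which side of the threshold this comparison fell, while leaving out SNx 1 alone gave 0.28 (adjusted permutation p = 0.122). Xpr1 minus Lrp2 was -6.27 ± 0.65 in SNx and -7.31 ± 0.15 in NoOp libraries, and all 12 SNx libraries lay above all controls. The difference was 1.03 (exact permutation p = 0.00404, adjusted p = 0.0202), that is, Xpr1 fell less than megalin. Without NoOp 5 the difference was 0.97 and the adjusted permutation p 0.0577. The log2 fold change of Lrp2 was lower than the -0.92 of Slc26a1, below which only 7.49% of all genes lay. Falling less than megalin therefore does not set Xpr1 apart. The share of all genes without overlap on this measure was not computed.

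Slc34a1 encodes the main apical sodium-phosphate cotransporter of the proximal tubule, and its transcript ran from 6.58 to 11.76 log2 CPM in SNx (median 11.03) and from 11.85 to 12.39 in NoOp libraries. Its log2 fold change was -1.42 with a standard error of 0.56 (edgeR adjusted p = 0.0378), a call that was lost without SNx 6, SNx 8, SNx 10 or any of NoOp 1 to NoOp 4 (edgeR adjusted p between 0.0504 and 0.0717) and when libraries were scaled by size alone (edgeR adjusted p = 0.0594). It was also lost in the lower number range alone (-1.63, edgeR adjusted p = 0.0784). Xpr1 minus Slc34a1 rose by 1.66 in SNx, with all 12 SNx libraries above all controls (exact permutation p = 0.0208, adjusted p = 0.036). The exporter transcript therefore fell less than that of the apical carrier in every SNx library. Slc34a1 had a lower log2 fold change than Lrp2 (-1.42 against -1.19), so this does not set Xpr1 apart either. Slc26a1 minus Slc34a1 rose by 0.92, with 10 of 12 SNx libraries above all controls (exact permutation p = 0.0288, adjusted p = 0.036). Leaving out SNx 5, SNx 6 or any single control ended the Xpr1 call (differences of 1.47 to 1.68), and leaving out SNx 1 or any of these ended the Slc26a1 call (0.75 to 0.98). Without SNx 1 and SNx 10 the latter was 0.79 with an adjusted permutation p of 0.0753.

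Across the 12 SNx libraries Slc26a1 and Xpr1 followed each other. Pearson's r was 0.925 and Spearman's rho 0.881 (permutation p of 3e-05 and 3e-04, adjusted p of 0.000135 and 0.00054 over 9 relations). Without SNx 1 and SNx 10, which lie farthest from the median of Xpr1, r was 0.797. Within the lower and the upper number range, each of 6 SNx libraries, r was 0.974 and 0.887 (exact permutation p = 0.0125 and 0.0153).

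Both transcripts ran with the proximal transcripts and against the injury marker. Slc26a1 followed Lrp2 with r = 0.928 and rho = 0.951, and Xpr1 followed it with r = 0.930 and rho = 0.902 (permutation adjusted p of 0.000135 and 0.00015 for r, 0.000135 and 0.00036 for rho). With Slc34a1, r was 0.879 for Slc26a1 and 0.866 for Xpr1, and rho was 0.944 and 0.895 (permutation adjusted p of 0.000765 and 0.00115 for r, 0.000135 and 0.00036 for rho). Without the 2 libraries farthest from the median, these 4 values of r lay between 0.821 and 0.902.

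Lcn2 encodes lipocalin 2, a secreted siderophore-binding protein that injured tubule cells make, and it stood at 4.94 to 7.70 log2 CPM in SNx against 1.14 to 1.96 in NoOp libraries. Over the SNx libraries r with Lcn2 was -0.690 for Slc26a1 and -0.661 for Xpr1, and rho was -0.874 and -0.713 (permutation adjusted p of 0.0190 and 0.0206 for r, 0.000585 and 0.0149 for rho). Without SNx 4 and SNx 11, the libraries farthest from the Lcn2 median, r was -0.584 and -0.562 and passed the test for neither gene, nor did it without SNx 1 (-0.621 and -0.606). Col3a1, a fibrillar collagen, showed r of -0.468 with Slc26a1 and -0.607 with Xpr1, and rho of -0.245 and -0.119 (permutation adjusted p of 0.141 and 0.0638 for r, 0.50 and 0.719 for rho). Without SNx 1, the library richest in Col3a1, r was 0.152 for Slc26a1 and 0.061 for Xpr1, and without SNx 8 it was -0.600 and -0.678, so the negative sign rested on SNx 1. Without both SNx 1 and SNx 8, the libraries farthest from the Col3a1 median, r was -0.0085 for Slc26a1 and 0.039 for Xpr1.

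Depth moved with these levels as well. SNx 1 and SNx 10, lowest in both transcripts, were also among the shallowest SNx libraries, with 19210434 and 19536433 counts. Over the 12 SNx libraries r with the log2 total count was 0.732 for Slc26a1 and 0.701 for Xpr1, and rho was 0.685 and 0.664 (permutation p of 0.0063 and 0.0080 for r, 0.0176 and 0.0219 for rho, with adjusted p of 0.0080 for both r over 2 relations chosen after the levels were seen). Without SNx 3 and SNx 9 r was 0.748 and 0.688. The deepest SNx libraries, SNx 3 and SNx 9, matched the shallowest controls in depth, with 30086234 and 30784070 counts against 30454170 in NoOp 5 and 31268168 in NoOp 1. At this depth Slc26a1 was at 7.37 and 7.44 log2 CPM in SNx against 7.53 and 7.81 in NoOp, while Xpr1 was at 5.53 and 5.44 against 5.32 and 5.77, where the groups overlapped. The part of depth in the difference between groups was not tested further.

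**Figure D4:**
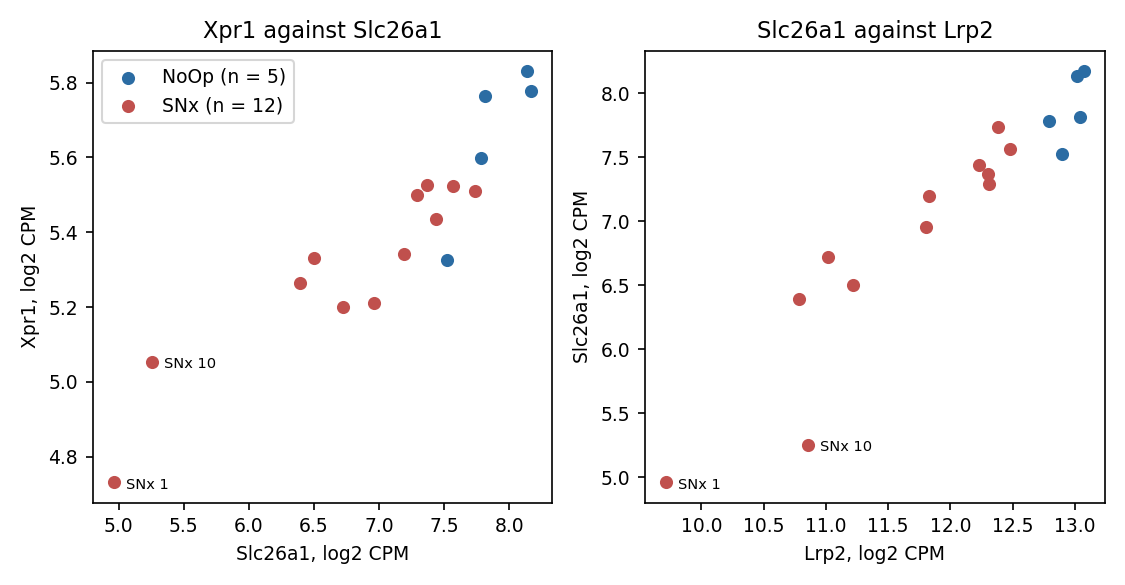
Xpr1 against Slc26a1 (left) and Slc26a1 against Lrp2 (right), each axis as log2 CPM, with 1 point per library, NoOp in blue (n = 5) and SNx in red (n = 12). SNx 1 and SNx 10 lie at the low end in both panels, where r over the SNx libraries is 0.925 and 0.928.

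The genes most like each transporter over the SNx libraries were then ranked by Pearson's r among 13348 genes whose mean was 1 log2 CPM or more, of which 1945 had a symbol. The closest to Slc26a1 with a symbol were Acss3 (r = 0.985), a mitochondrial acyl-CoA synthetase, Elovl2 (0.984), a fatty acid elongase, Slc13a3 (0.980), the sodium-dicarboxylate cotransporter of the basolateral membrane, Aldh7a1 (0.976), an aldehyde dehydrogenase of lysine breakdown, and Acot4 (0.974), a peroxisomal acyl-CoA thioesterase. All 5 fell in SNx, with log2 fold changes from -0.81 (Acss3) to -1.38 (Slc13a3), where 40.5% of tested genes with a symbol and 27.7% of all genes were called lower. The Slc13a3 call was lost without NoOp 2 (edgeR adjusted p = 0.0536) and in the lower number range alone (edgeR adjusted p = 0.0686). Closest to Xpr1 were Stxbp5 (0.959), a syntaxin-binding protein, Dnajc13 (0.950), an endosomal cochaperone, Atrnl1 (0.950), an attractin-like membrane protein, Tmem33 (0.949), an endoplasmic reticulum protein, and Slc17a3 (0.947), an organic anion and phosphate carrier. Of these 4 fell, with log2 fold changes from -0.37 (Dnajc13) to -0.67 (Tmem33), and Slc17a3 had a log2 fold change of -0.48 that missed the threshold (edgeR adjusted p = 0.229). The Dnajc13 call was lost when libraries were scaled by size alone, with a log2 fold change of -0.16 (edgeR adjusted p = 0.184), and in the lower number range alone (edgeR adjusted p = 0.059).

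These likenesses describe 12 libraries that share the same differences in depth and tubule content. The median r of all genes was 0.057 with Slc26a1 and 0.069 with Xpr1, yet 610 genes passed 0.9 with Slc26a1 and 222 with Xpr1. Xpr1 stood behind 275 genes (2.06%) in likeness to Slc26a1, and Slc26a1 behind 68 (0.509%) in likeness to Xpr1.

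Other genes of sulfate and phosphate handling could be followed only where a symbol was at hand, so the counts that follow come from transcripts the study had called changed and are not independent evidence of change. They stand beside the 40.5% lower and 53.4% higher among tested genes with a symbol. For levels without overlap, 9.60% of all 15438 genes tested lay lower and 13.5% higher in SNx. That share was not computed for genes with a symbol. Of 13 genes of the SLC26 family and the sodium-sulfate cotransporters, listed as sulfate transport, 3 had an identifier, and all of them fell. Besides Slc26a1 these were exchangers best known for other anions: Slc26a4 (pendrin, the chloride-bicarbonate exchanger of intercalated cells), at 5.95 to 7.41 log2 CPM in SNx and 7.25 to 7.73 in NoOp libraries, and Slc26a7, an anion exchanger of acid-secreting intercalated cells, at 0.35 to 3.30 and 3.46 to 3.89. Their log2 fold changes were -0.72 ± 0.18 (SE) and -1.37 ± 0.34 (edgeR adjusted p = 0.00326 and 0.00279). The levels of Slc26a7 did not overlap between groups, while 10 of 12 SNx libraries lay below all controls for Slc26a4, as for Slc26a1. The apical sodium-sulfate cotransporter Slc13a1 had no identifier.

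Sulfate is also made in the cell from cysteine, and 4 of 7 genes of this route had an identifier. Mpst and Tst, sulfurtransferases that handle cysteine-derived sulfur, Ethe1, the persulfide dioxygenase, and Suox, the sulfite oxidase that makes sulfate, all fell with no overlap between groups. Their log2 fold changes were -1.14, -1.54, -0.76 and -1.18, with a median of -1.16 against 0.02 for all genes tested. Suox, at 4.23 to 6.46 log2 CPM in SNx and 6.70 to 7.06 in NoOp libraries, had a standard error of 0.25 (edgeR adjusted p = 0.00102).

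Of 35 genes of sulfate use and release, 6 had an identifier, and they moved in both directions. Papss2, which makes the activated sulfate donor, and Chst2, a sulfotransferase acting on N-acetylglucosamine, fell with no overlap (log2 fold changes of -0.71 and -1.24). Sult1b1, a cytosolic sulfotransferase, had a log2 fold change of -0.87 ± 0.43 (SE) and missed the threshold (edgeR adjusted p = 0.0899). The chondroitin sulfotransferase Chst12, the lysosomal sulfatase Galns and the extracellular heparan sulfatase Sulf2 rose, with log2 fold changes of 1.13, 1.15 and 0.78 and all 12 SNx libraries above all controls. The median of the 6 was 0.04.

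Of 12 phosphate transport genes, 8 had an identifier, of which 4 fell, 2 rose and 2 missed the threshold. Besides Xpr1 and Slc34a1, the sodium-phosphate cotransporter Slc34a3 fell from 6.50 ± 0.72 (SD, n = 5) to 4.80 ± 1.20 log2 CPM (SD, n = 12), a log2 fold change of -1.46 ± 0.46 (SE, edgeR adjusted p = 0.0125), and Slc17a2 fell by 0.88 on the log2 scale, a call lost when libraries were scaled by size alone (edgeR adjusted p = 0.0511) and in the lower number range alone (-0.98, edgeR adjusted p = 0.0555). The log2 fold changes of Slc17a1 (-0.77) and Slc17a3 (-0.48), apical anion carriers, did not pass the test (edgeR adjusted p = 0.127 and 0.229). Slc34a2, the isoform best known from lung and intestine, rose to 7.36 to 9.48 log2 CPM in SNx from 5.82 to 6.38 in NoOp libraries, a log2 fold change of 2.37 ± 0.33 (SE, edgeR adjusted p = 2.16e-05). Slc17a4, known from the intestine, rose likewise, at 3.41 to 5.16 against 1.69 to 2.96 log2 CPM and a log2 fold change of 2.12. Xpr1 had the smallest log2 fold change in size of these 8 genes, and their median was -0.62.

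Of 22 genes that regulate phosphate handling, 5 had an identifier. Pth1r, the parathyroid hormone receptor, Fgfr4, a receptor for the phosphaturic hormone FGF23, Pdzk1, a scaffold of the brush border that binds Slc34a1, and Alpl, the tissue-nonspecific alkaline phosphatase, fell with no overlap (log2 fold changes of -1.35, -0.63, -1.39 and -2.22). Sfrp4, a secreted Wnt antagonist with phosphaturic action, rose from -2.89 to -0.96 log2 CPM in NoOp to 0.11 to 3.66 in SNx libraries, a log2 fold change of 3.56 ± 0.63 (SE, edgeR adjusted p = 0.000205). None of the 10 genes that make or break down inositol pyrophosphates, the ligands of the XPR1 SPX domain, had an identifier. Of the 13 sulfate genes 3 rose and 9 fell, and of the 13 phosphate genes 3 rose and 8 fell, a split that RLE size factors left as it was. Scaling by library size alone left the risers at 3 and 3 and the fallers at 8 and 5.

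**Figure D5:**
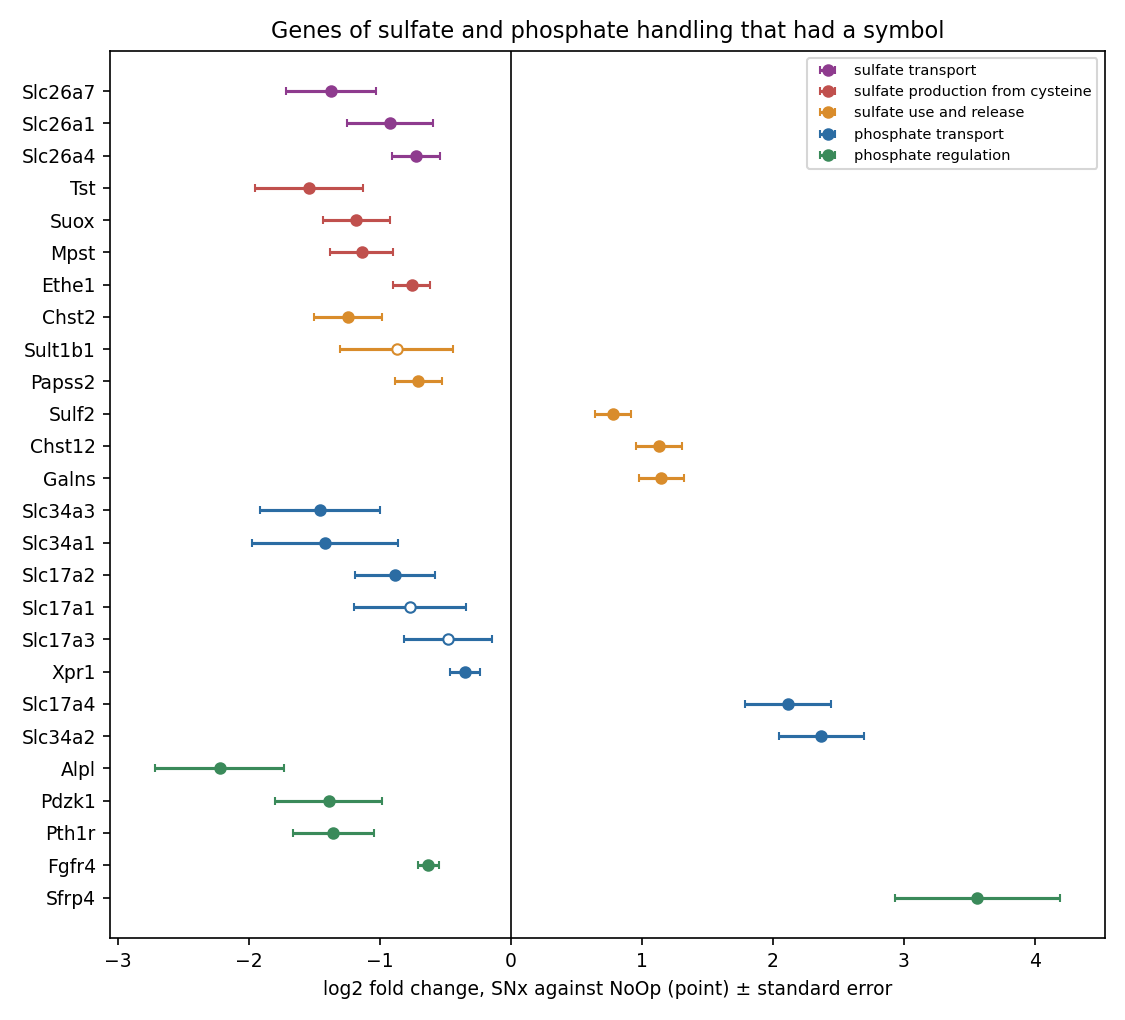
Log2 fold change, SNx against NoOp (x axis), with its standard error as a bar, for each gene of sulfate and phosphate handling that had a symbol (y axis), coloured by list, with open circles for genes that did not pass the edgeR test. Slc26a1 (-0.92) lies between the other 2 genes of the sulfate transport list, Slc26a4 and Slc26a7, and Xpr1 (-0.35) is the smallest in size of the phosphate transport genes.

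In the GRCr8 annotation the gene Idua, which encodes the lysosomal enzyme alpha-L-iduronidase, lies on the opposite strand and spans Slc26a1. The libraries were strand specific, but whether the quantification used the strand is not given in the sources used here, so the counts of Slc26a1 are uncertain to that extent. Idua had no identifier to set beside it. No gene in that annotation overlapped Xpr1.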

How the data were processed

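Kidney RNA was depleted of ribosomal RNA, made into strand-specific libraries and sequenced as paired ends. The study reports RNA integrity estimates over a wide range for its samples, with very low values among them. Estimates for single libraries were not at hand, and the part of RNA quality in the results was not tested. The authors deposited estimated counts, already whole, for each gene, and log2 values on a scale they describe as length-scaled counts after voom. The submitters' processing notes name Salmon, limma and rn6, without versions. Series-wide tables, with 34 columns of the same values, were left aside. Gene symbols came from the transcript lists of the study's supplement in the part used here, which paired 2007 identifiers with symbols. The members and gene lists were chosen with earlier results of these data known.

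The counts were filtered with filterByExpr, scaled with TMM and tested in R 4.3.3 with edgeR 4.0.16 (glmQLFit and glmQLFTest, two-sided, Benjamini-Hochberg over 15438 genes, FDR threshold 0.05). Log2 CPM used a prior count of 2. Each standard error follows from a fold change and its F statistic. Fold changes compare mean counts and so lean towards libraries with high counts. Single values were compared by exact permutation of the libraries, and correlations by 100000 permutations unless 6 libraries allowed an exact test. No libraries of a group were alike within sampling noise (lowest chi-square per degree of freedom 21.9). On simulated counts for SNx against NoOp over 15438 genes, edgeR called 98 of 100 genes changed 4-fold, 185 of all 200 changed genes and 4 unchanged genes. Only these 200 genes were changed, evenly up and down, and the spread was set equal in both groups. The simulation therefore does not test scaling when 58.0% of genes are called, nor unequal spread between groups. DESeq2 1.42.0, limma 3.58.1, other scalings and filters, single libraries left out and the number ranges were tried as alternatives. Named are the members, up to 6 tested genes per list, and the 5 genes with a symbol most like each member. Promoter windows are RefSeq's, from build GRCr8.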

Additional observations from a re-analysis of the deposited data

Results flagged for a closer look

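In 2 of 43 sets of NoOp values examined, 1 library stood apart from the other 4 by Dixon's test, where chance alone gives about 2.15, and both times it was NoOp 5. Xpr1 minus Lrp2 was -7.57 log2 units in NoOp 5 and -7.30 to -7.19 in the other controls. NoOp 5 is also the control lowest in Xpr1, and without it the difference between groups in Xpr1 minus Lrp2 was 0.97 with an exact permutation adjusted p of 0.0577. Tmem33, one of the genes most like Xpr1, stood at 6.04 log2 CPM in NoOp 5 and 6.42 to 6.54 in the other controls, and its log2 fold change moved from -0.67 to -0.75 on leaving NoOp 5 out.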

How the results depend on the processing

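For Slc26a1 and Xpr1, DESeq2, limma-voom, limma on the deposited log2 values, robust dispersions, RLE size factors, no filter and a minimum of 10 counts in every library kept direction and call. Scaling by library size alone ended both calls (log2 fold changes -0.73 and -0.15), as did the SNx libraries of the lower number range alone (-0.92 and -0.35). The upper range alone, also with 6 SNx libraries, kept both calls (-0.91 and -0.34). A change of at least 1.5-fold lowered the number of genes called from 8949 to 5165. In the lower range alone Slc26a1 minus Lrp2 was 0.41 and passed the test, as it did without SNx 1 and SNx 10 (0.36), a setting chosen after seeing the data that ended the call of Slc26a1 minus Slc34a1 (0.79). The cause was not tested.

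With Lcn2, r was -0.771 (Slc26a1) and -0.711 (Xpr1) in the lower range, -0.656 and -0.619 in the upper range, and -0.584 and -0.562 without the 2 farthest libraries, and passed the test in none of these. In the upper range r of Xpr1 was 0.852 with Lrp2 and 0.828 with Slc34a1, also not past the threshold with 6 libraries. With Col3a1, which never passed for Slc26a1, r turned to 0.130 in the upper range for Slc26a1 and to 0.039 for Xpr1 without the 2 farthest libraries. For Xpr1 it stayed negative in the upper range (-0.208).

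Leaving out single libraries gave log2 fold changes of -1.02 to -0.83 for Slc26a1 and -0.43 to -0.31 for Xpr1. Slc26a1 minus Xpr1 was -0.82 to -0.63, Slc26a1 minus Lrp2 0.21 to 0.36 (past the threshold without SNx 10), Xpr1 minus Lrp2 0.91 to 1.09, Slc26a1 minus Slc34a1 0.75 to 0.99 and Xpr1 minus Slc34a1 1.39 to 1.79. With Lcn2, r was -0.763 to -0.621 for Slc26a1 and -0.720 to -0.606 for Xpr1. With Col3a1 it was -0.604 to 0.152 for Slc26a1 and -0.681 to 0.061 for Xpr1, turning positive without SNx 1, while Xpr1 passed the threshold without SNx 3 (permutation adjusted p = 0.048).

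No paired analysis was possible because the labels pair no SNx library with a NoOp library. Of the values for other named genes under these alternatives, 990 kept direction and call, 15 lost the call and 2 gained it. All 5 controls lie in the lower number range, and all but NoOp 5 were deeper than every SNx library, which limits comparison at equal depth.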
